A study of Mus musculus with 4 samples.

Results

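Ptx3, Acod1, Il6, Tnf, Il10, Il12a, Il12b and Il23a encode inflammatory effectors and cytokines that macrophages make when they sense microbes or tissue damage. They were followed in macrophages sorted from mouse mammary glands, through every probe set whose annotation names one of these 8 genes and no other. This gave 9 probe sets of the 22690 on the array, 1 for each gene and 2 for Il12b, so 8 of the 12393 genes that have a probe set of their own. The genes were picked with the differences on these same arrays in view, so the values below describe these arrays and no test supports them.

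Sensing receptors at the cell surface, Toll-like receptors among them, switch on NF-kappa-B, AP-1 and C/EBP factors in macrophages, and these drive transcription of the inflammatory genes. Ptx3 is a soluble pattern-recognition protein that is also built into the hyaluronan-rich matrix made during inflammation, and fibroblasts and endothelial cells make it as well as macrophages. Acod1 is a mitochondrial enzyme that makes itaconate, a metabolite that restrains succinate dehydrogenase and inflammatory output. Il6 and Tnf encode inflammatory cytokines, and Il10 encodes the cytokine that damps them. Il12a and Il12b encode the subunits of IL-12, and the product of Il12b also pairs with that of Il23a to form IL-23.

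The study had 4 groups of 1 array each. Remodeling macrophages without tumor came from mice labelled wild type or from mice with both copies of Ets2 deleted in macrophages. Tumor macrophages came from early mammary tumors that the PyMT oncogene causes, in mice whose source label gives 1 copy of Ets2 (titled wild type) or with both copies deleted. The Ets2-expressing arrays therefore differ in labelled Ets2 genotype as well as in setting. Comparisons between the settings that use these arrays cannot tell genotype and setting apart. All 4 groups carried YFP in their macrophages, and the fluorescent cells were taken by flow sorting; the driver of the deletion, the age of the mice and the number of animals behind each RNA sample are not given in the sources used here.

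Values are log2 expression values as deposited, and each run of 4 values gives the pair of remodeling arrays and then the pair of tumor arrays, with the array labelled Ets2-expressing first in each pair. The array medians were 6.17, 5.98, 6.22 and 6.30, and the 25th percentiles, taken here as background, were 4.27, 4.29, 4.32 and 4.29. With 1 array a group there was no replicate check and no p-value, and "higher" or "lower" means higher or lower on these arrays. A gene was counted in a comparison where its brighter array lay at or above that array's median, and called where the difference was at least 2-fold (1 log2). The only error at hand was the pooled standard deviation (SD) of the difference among bright probe sets that share a gene: 0.278 for the Ets2 comparison in remodeling macrophages, 0.338 in tumor macrophages, 0.410 for tumor minus remodeling between the Ets2-expressing arrays and 0.320 between the Ets2-deficient arrays. It comes from other genes and leaves out animals, sorts and RNA amplification. The Ets2 probe set itself read 13.24, 12.97, 12.77 and 12.67, bright on the arrays labelled Ets2-deficient too. The labels do not say which exons were deleted, so this probe set is no check of them. The summed signal of 21 macrophage identity genes lay between 16.48 and 16.52 log2, a sum set by its brightest genes. Itgam was dimmer than the median on all 4 arrays. The fractalkine receptor gene Cx3cr1 read 6.77, 8.99, 9.53 and 10.19. Cx3cr1 was the one identity gene past 2-fold, by 2.22 with the Ets2 label in remodeling macrophages and by 2.76 and 1.19 for tumor minus remodeling at the Ets2-expressing and Ets2-deficient labels. The last of these was 0.88 after median centring, and the other Cx3cr1 probe set was below the median of every array.

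Ptx3, Acod1 and Il6 were the members past 2-fold between the remodeling arrays, and their promoters are shown because these 3 genes were lower together there. RefSeq promoters (build GRCm38.p6) matched 6 of the 8 members, and Il10 and Il23a are named only. Each line gives the 250 bases before the start of transcription, 5′ to 3′, with motif matches on either strand in capitals.
Ptx3 (chr3:66219637-66219886, plus strand): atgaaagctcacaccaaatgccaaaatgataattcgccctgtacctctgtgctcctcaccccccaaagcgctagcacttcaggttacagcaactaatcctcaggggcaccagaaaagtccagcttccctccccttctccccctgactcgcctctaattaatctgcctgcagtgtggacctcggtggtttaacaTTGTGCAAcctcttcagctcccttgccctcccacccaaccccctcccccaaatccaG
Il6 (chr5:30012864-30013113, plus strand): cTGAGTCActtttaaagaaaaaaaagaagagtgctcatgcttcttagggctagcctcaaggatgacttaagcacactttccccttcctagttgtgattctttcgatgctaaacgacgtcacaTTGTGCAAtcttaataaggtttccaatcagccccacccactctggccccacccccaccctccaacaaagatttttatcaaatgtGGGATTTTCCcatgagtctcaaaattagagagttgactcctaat
Acod1 (chr14:103046762-103047011, plus strand): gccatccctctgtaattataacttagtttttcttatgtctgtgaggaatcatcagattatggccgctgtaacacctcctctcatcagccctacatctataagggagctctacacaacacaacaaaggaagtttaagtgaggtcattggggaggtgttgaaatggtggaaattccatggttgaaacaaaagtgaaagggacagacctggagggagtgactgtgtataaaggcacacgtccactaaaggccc

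The motifs searched, in a window of 250 bases before to 50 after the start, were CCGGAA and CAGGAA for ETS factors, TGANTCA for AP-1, TTGCNNAA for C/EBP, and the kappa B motif. Ptx3 and Il6 both held the 8 letters TTGTGCAA, a C/EBP match on the minus strand, from -57 to -50 in Ptx3 and from -128 to -121 in Il6. Each also held a kappa B match, GGGATTTTCC from -44 to -35 in Il6, and in Ptx3 the letters GGGGAACTCC from -1 to 9, of which the line above shows the first G (an overlapping match runs from 1 to 10). Il6 had an AP-1 match at -249 to -243. Acod1, Tnf, Il12b and both promoters of Il12a held none of the 5 motifs, and neither ETS motif was in any of the 7 member promoters. Both ETS motifs are extended forms of the core GGAA. That core alone was not searched, and the Acod1 line above holds it, so promoters without either motif cannot be said to lack ETS-type letters. Among all 32851 promoters of this length, 10.8% held the C/EBP motif, 8.46% the kappa B motif, 7.81% the AP-1 motif, 14.9% CCGGAA and 30.6% CAGGAA. A match is a run of letters in this window, not a site shown to be bound.

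**Figure D1:**
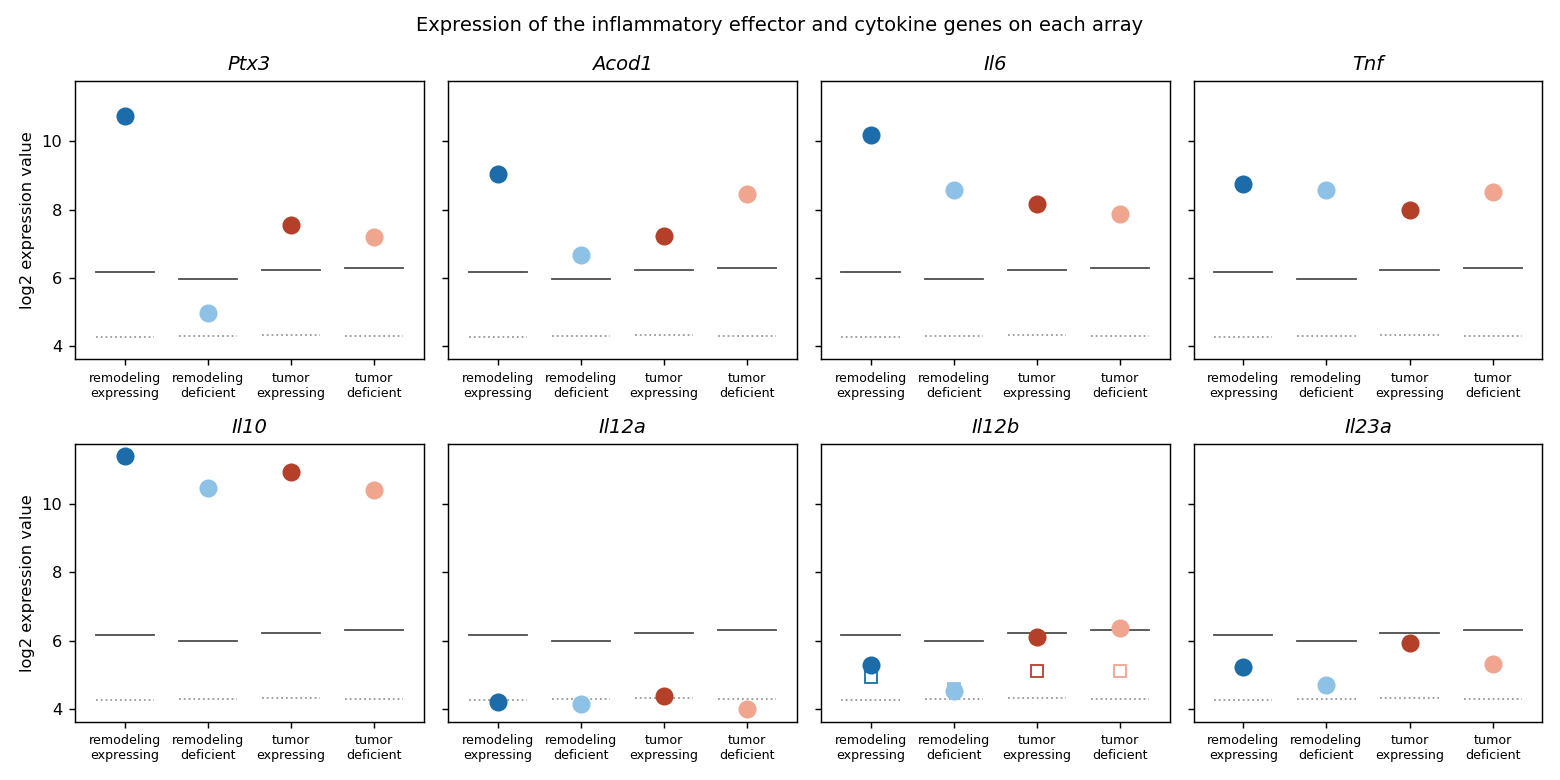
Log2 expression value of each member (vertical axis) on the 4 arrays (horizontal axis); filled circles are the probe set standing for the gene, open squares the other Il12b probe set, solid bars each array's median and dotted bars its 25th percentile. Ptx3 runs from 10.73 to 4.96 across the arrays, whereas Il12a stays between 3.99 and 4.38.

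Ptx3 (probe set 1418666_at) read 10.73, 4.96, 7.55 and 7.19. The remodeling Ets2-expressing array stood above both tumor arrays, which lay near each other, and the remodeling Ets2-deficient array was the lowest and the only one below its median. Ets2-deficient minus Ets2-expressing gave -5.77 log2 in remodeling macrophages, a 54.6-fold difference whose size is not exact because the lower value lies near background. In tumor macrophages it was -0.37, about the size of the probe set SD of 0.338. Tumor minus remodeling was -3.18 on the Ets2-expressing arrays and 2.22 on the Ets2-deficient arrays. These comparisons share arrays with the Ets2 comparisons, and the second rests on the same low remodeling Ets2-deficient value. On mixed RNA such as this, fewer cells of a type and less RNA per cell cannot be told apart.

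Acod1 (1427381_at) read 9.03, 6.66, 7.23 and 8.45. It was above the median on all 4 arrays, and the settings were opposite: the Ets2-expressing array was the higher one in remodeling macrophages and the Ets2-deficient array in tumor macrophages. The differences were -2.37 log2 (5.18-fold lower) in remodeling and 1.21 (2.32-fold higher) in tumor macrophages, 8.5 and 3.6 times the probe set SDs. The difference of these differences, tumor minus remodeling and so also across unequal labelled genotypes of the Ets2-expressing arrays, was 3.59 log2. The SD set beside it, 0.437, was combined from the probe set SDs of both Ets2 comparisons as if they were independent, which was not checked. Among 7473 genes bright on at least 1 array, the difference of differences of Acod1 was the 17th highest, and that of Ptx3 (5.40) the highest. The members were picked with such differences in view, so nothing is read from these ranks. The Ptx3 value also rests on its remodeling Ets2-deficient value, which lies near background. Tumor minus remodeling was -1.80 between the Ets2-expressing arrays and 1.79 between the Ets2-deficient ones.

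Among the inflammatory cytokines, Il6 (1450297_at) read 10.18, 8.56, 8.15 and 7.86. The remodeling Ets2-expressing array stood apart and the other 3 lay within 0.70 log2. Its Ets2 difference was -1.62 (3.07-fold lower) in remodeling macrophages and -0.30 in tumor macrophages, the latter within the probe set SD. Tumor minus remodeling was -2.02 (4.07-fold lower) on the Ets2-expressing arrays and -0.70 on the Ets2-deficient arrays.

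Tnf (1419607_at), which encodes the cytokine that acts through the receptors Tnfrsf1a and Tnfrsf1b, read 8.74, 8.56, 7.98 and 8.51. Only the tumor Ets2-expressing array was a little lower. No difference reached 2-fold: -0.18 and 0.53 with the Ets2 label in remodeling and tumor macrophages, -0.76 and -0.05 for tumor minus remodeling at the Ets2-expressing and Ets2-deficient labels.

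Il10 (1450330_at) read 11.39, 10.45, 10.94 and 10.41, high on every array and lower with the Ets2-deficient label in both settings. The Ets2 differences were -0.94 (1.92-fold lower) in remodeling and -0.53 in tumor macrophages, 3.4 and 1.6 times the probe set SDs, and neither reached 2-fold. Tumor minus remodeling was -0.45 and -0.04, so on the Ets2-deficient arrays Il10 was level between the settings.

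The IL-12 family subunits were dim. Il12a (1425454_a_at) read 4.20, 4.16, 4.38 and 3.99, below the 25th percentile on 3 arrays, so no order can be read. Il23a (1419529_at) read 5.22, 4.69, 5.93 and 5.31, below the median on every array, and was not counted in any comparison. The brighter Il12b probe set (1419530_at) read 5.30, 4.52, 6.11 and 6.36 and passed its array's median only on the tumor Ets2-deficient array. Both tumor arrays were higher than both remodeling arrays, with tumor minus remodeling at 1.84 (3.59-fold) between the Ets2-deficient arrays and 0.81 between the Ets2-expressing ones. The log2 of the summed linear levels of 11 dendritic cell markers was also higher on the tumor arrays, at 12.58, 12.52, 13.11 and 13.09. Their median difference was 0.56 at the Ets2-expressing and 0.07 at the Ets2-deficient label, and 3 of 11 were higher past 2-fold at each Ets2 label, Itgax (CD11c) at both (1.93 and 1.80). Of the 11, 8 and 9 were counted at these labels, where 6.18% and 7.61% of all genes counted were higher past 2-fold. At the Ets2-deficient label 1 dendritic cell gene, Zbtb46, was lower (-1.04). The part of dendritic cells in the Il12b difference was not tested. The other Il12b probe set (1449497_at), dim throughout at 4.94, 4.59, 5.11 and 5.11, gave 0.52 and 0.17 for the same differences, so the 2 probe sets agree in direction and not in size.

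**Figure D2:**
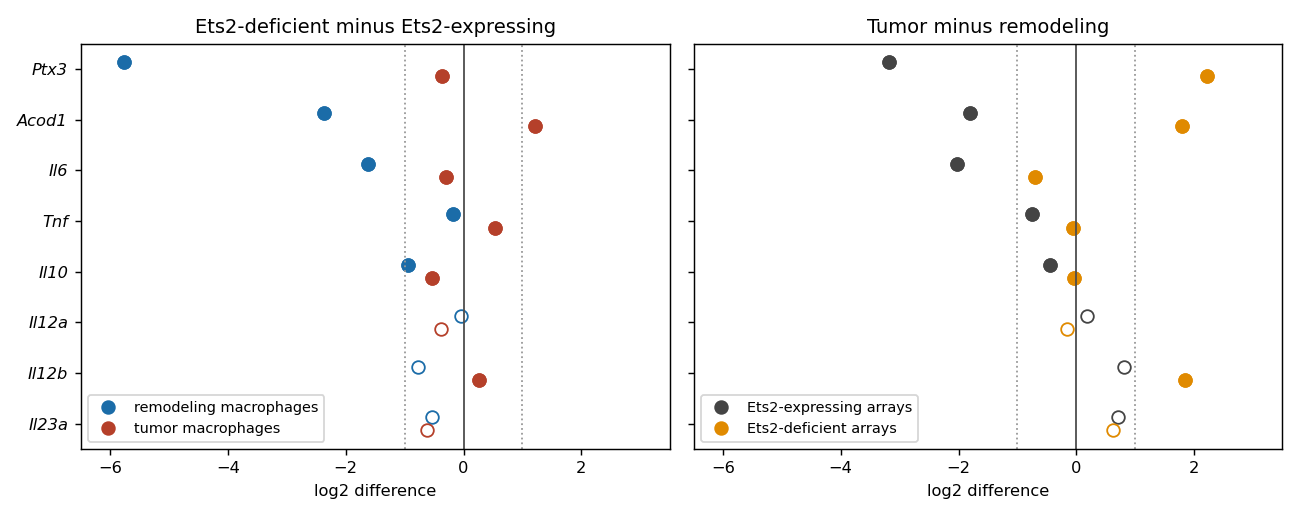
Log2 difference of each member (horizontal axis) for the Ets2 label in each setting (left) and for tumor minus remodeling at each Ets2 label (right); dotted lines mark 2-fold, and open circles are members too dim to count. On the left, Ptx3, Acod1 and Il6 lie below -1 in remodeling macrophages and Acod1 alone lies above 1 in tumor macrophages.

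In remodeling macrophages 5 of the 8 members were bright enough to count, and 3 of them, Ptx3, Acod1 and Il6, were lower past 2-fold on the Ets2-deficient array with none higher. Of the 7095 genes counted there, 5.17% were lower past 2-fold. The members were picked with the differences on these arrays in view, so nothing is read from their share here or in the comparisons that follow. The median over all 8 members was -0.86 log2, beside 0.04 over all genes. All 8 values were below 0 as deposited, and 6 were after centring each array on its median or on its hybridization controls, when Tnf (0.02) and Il12a (0.15) lay above 0.

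In tumor macrophages 6 members were counted, and Acod1 was the one past 2-fold, on the higher side, where 2.23% of 7225 genes were higher past 2-fold. The members' median was -0.33, beside 0 over all genes, with 3 members above 0 (Acod1, Tnf and Il12b) and 5 below. The Acod1 call was lost with a brightness limit at the 75th percentile of each array, since neither tumor array reached it.

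For tumor minus remodeling between the Ets2-expressing arrays, 3 of the 5 members counted (Ptx3, Acod1 and Il6) were lower past 2-fold, against 5.20% of 7253 genes. On the Ets2-deficient arrays 3 of 6 were higher (Ptx3, Acod1 and Il12b), against 7.61% of 7203 genes. The difference of the Ets2 differences was at least 1 log2 above 0 for 4 of 6 members, against 8.50% of 7473 genes, and below -1 for none. Of these 4, Il12b (1.03) fell under 1 under every other scaling and with both its probe sets averaged.

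**Figure D3:**
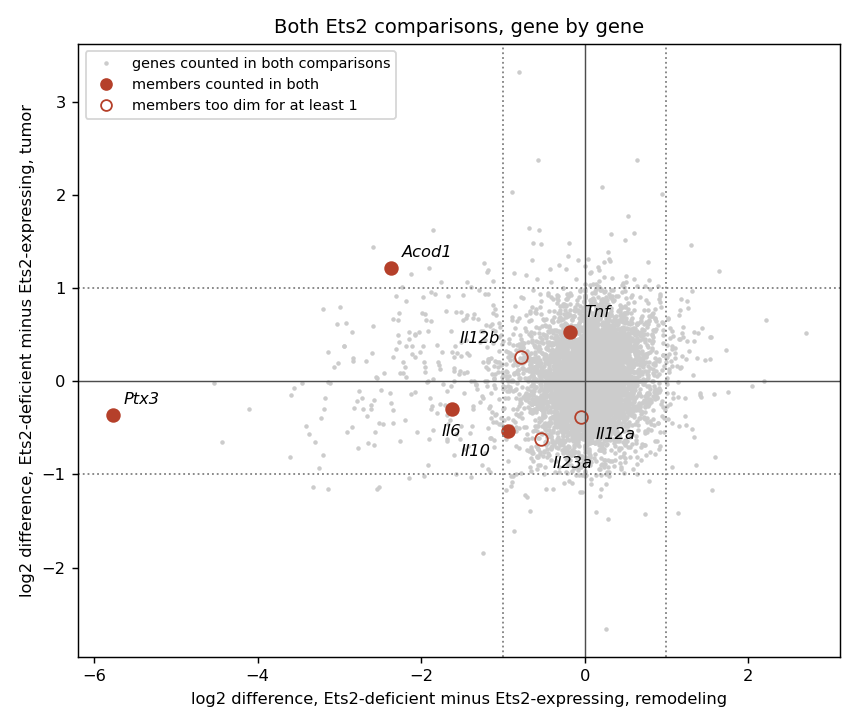
Log2 difference with the Ets2 label in remodeling (horizontal axis) and tumor macrophages (vertical axis) for every gene counted in both comparisons (grey) and for the members (red; open where too dim for at least 1 comparison); dotted lines mark 2-fold. Ptx3 is at the left edge near the horizontal line at 0, and Acod1 sits in the upper left corner, at -2.37 and 1.21.

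Receptors for the member cytokines differed little. None of the 8 measured receptor genes passed 2-fold in any of the 4 comparisons. The IL-6 receptor chain Il6ra read 10.77, 10.91, 10.56 and 10.42, and its signalling partner Il6st 9.86, 9.69, 9.31 and 8.94. The TNF receptors Tnfrsf1a and Tnfrsf1b ranged from 9.06 to 9.51 and from 10.26 to 10.83, and the IL-10 receptor chain Il10ra from 8.55 to 9.15. The IL-12 receptor chains Il12rb1 and Il12rb2 lay below the median of every array. The list median was -0.11 with the Ets2 label in remodeling macrophages, with 7 of 8 below 0, but 0.09 with 8 of 8 above 0 after median centring.

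Of 16 pentraxins and Ptx3 partners measured, 9 were counted in remodeling macrophages. On the Ets2-deficient array 4 were lower past 2-fold, none higher (list median -0.30), beside 5.17% of all genes counted that were lower. Tnfaip6, whose product links hyaluronan to its carrier proteins and binds Ptx3, read 11.50, 8.25, 9.72 and 8.78, a difference of -3.25. The hyaluronan synthases Has2 and Has1 differed by -2.52 and -1.64, and the hyaluronan-binding proteoglycan Vcan, which is also in the monocyte list, by -2.59. The other 5 counted genes (Selp, C1qa, C1qb, C1qc and Fcna) did not pass 2-fold. On the same array 17 of 17 fibroblast markers were lower (median -2.14), and the part of fibroblasts in these 4 differences was not tested. In tumor macrophages Tnfaip6 differed by -0.93, while Vcan (1.44) and the adhesion receptor Selp (1.30) were higher past 2-fold. For Selp the other probe set, dim on both tumor arrays, gave -0.24, and the other Vcan probe sets gave 0.24 and 0.77. The short pentraxins Crp and Apcs stayed between 3.72 and 4.43 on all arrays, at or near background, and the complement partners C1qa, C1qb and C1qc and the ficolin Fcna differed by at most 0.35 with the Ets2 label.

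The enzymes around itaconate showed no such pattern. All 20 measured genes of the tricarboxylic acid cycle and itaconate handling were bright, and none passed 2-fold in any comparison, with list medians of 0.08 in remodeling and 0.14 in tumor macrophages for the Ets2 label.

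Other genes that lipopolysaccharide induces together with the members lay mostly below 0 with the Ets2-deficient label in remodeling macrophages and mostly above 0 in tumor macrophages. The list was chosen with earlier results of these data known, so nothing is read from its counts. Of 28 measured, 25 lay below 0 on the remodeling Ets2-deficient array (median -0.50, beside 0.04 over all genes). Of the 24 counted, 4 were lower past 2-fold, beside 5.17% of all genes counted. These were the granulocyte growth factor Csf3 (-2.65, at 6.77, 4.13, 4.07 and 4.10, so at background on 3 arrays), the cytokine Il1a (-1.45), the cystine transporter Slc7a11 (-1.22) and the lectin receptor Clec4e (-1.16), which fell under 2-fold after median centring. In tumor macrophages 19 of the 28 lay above 0 (median 0.21). Of the 23 counted, 1 was higher past 2-fold, the acute-phase gene Saa3 (2.37), beside 2.23% of all genes counted. Slc7a11, Il1a and Clec4e were at 0.94, 0.68 and 0.59 there. After median centring 22 were below 0 in remodeling and 15 above 0 in tumor macrophages, with medians of -0.31 and 0.12. Nos2, the nitric oxide synthase of inflammatory macrophages, was at background on every array (3.90 to 4.16), and Ptgs2, the inducible prostaglandin synthase, was bright on all 4 (10.96 to 11.84), although its dimmer probe set differed by -1.33 in remodeling macrophages.

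**Figure D4:**
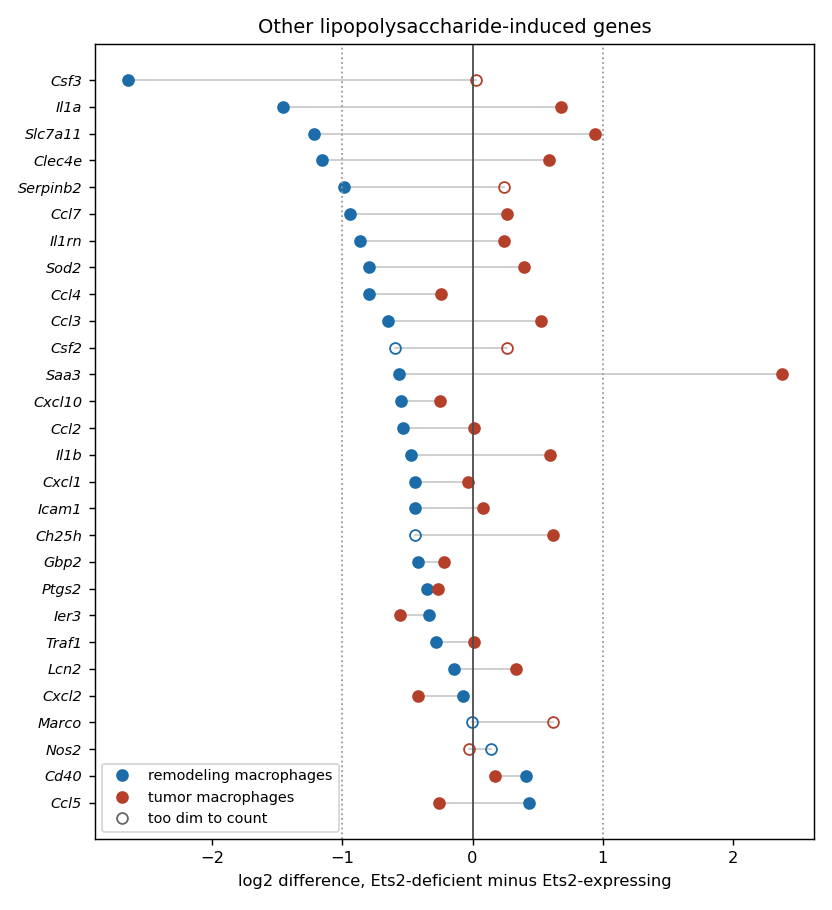
Log2 difference with the Ets2 label (horizontal axis) for 28 other lipopolysaccharide-induced genes (vertical axis), in remodeling (blue) and tumor macrophages (red), joined by a grey line for each gene; open circles are too dim to count and dotted lines mark 2-fold. In remodeling macrophages 25 of 28 points lie left of 0, and in tumor macrophages 19 lie right of it.

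Upstream sensing and signalling genes were mostly level. Of 20 measured, Fosl1, an AP-1 subunit, was the one past 2-fold in remodeling macrophages (-1.93, at 6.82, 4.88, 5.01 and 5.01), and its other probe set was at background, so that their average was -0.93. Tlr2 differed by -0.74 in remodeling and 0.41 in tumor macrophages, and Tlr4 by 0.29 and 0.43, while the other Tlr4 probe set, also bright, gave -0.48 and -0.85. The C/EBP gene Cebpb differed by -0.60 and 0.12 in the same order, and Rela and Rel, which encode NF-kappa-B subunits, by at most 0.28 in either setting. Irf8 was higher in remodeling macrophages (0.80, and 0.485 on its other probe set). In tumor macrophages Irf1 and Junb were at -0.63 and -0.59. Of the 20 genes, 7 lay above 0 and 12 below in remodeling macrophages, and 8 above and 11 below in tumor macrophages. The list medians were -0.11 and -0.03.

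Of 20 genes for feedback on these cytokines and decay of their mRNAs, 18 were counted in remodeling macrophages. Timp3 encodes an inhibitor of the protease that releases TNF from the cell surface, and Bcl3 an NF-kappa-B cofactor. Both were lower past 2-fold there (-3.18 and -1.28), as were 5.17% of all genes counted. Timp3 read 9.98, 6.81, 7.77 and 7.60, and the part of fibroblasts in its difference was not tested. Nfil3, a transcription factor induced by IL-10, was higher past 2-fold in tumor macrophages (1.20, at 9.74, 9.51, 9.10 and 10.30). The mRNA decay factor Zfp36 and the feedback inhibitors Socs3 and Nfkbia were bright and differed by at most 0.42 log2 in either Ets2 comparison on the probe sets standing for them. A dimmer Socs3 probe set, above the median of every array, read 8.26, 7.33, 8.48 and 8.44, a difference of -0.93 in remodeling and -0.03 in tumor macrophages. The list medians were -0.13 and -0.12. Among 13 measured genes of the same cytokine families none passed 2-fold with the Ets2 label while counted (medians -0.09 and -0.18). For tumor minus remodeling the B cell survival factor Tnfsf13b was higher past 2-fold at both Ets2 labels (1.17 and 1.29), the second falling to 0.97 after median centring. Tnfsf14 was lower at both (-1.39 and -1.15), and its other probe set was dim.

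Markers of some other cell types also differed with the Ets2 label, and those of others were level or went the other way. Fibroblast genes were lower in remodeling macrophages on the Ets2-deficient array for 17 of 17 (median -2.14). Of the 15 counted, 14 were lower past 2-fold, beside 5.17% of all genes counted. That share also stands beside the mast cell and endothelial counts below. The log2 of the summed linear fibroblast levels was 14.63, 12.92, 13.68 and 13.70. None of the 17 lay below the 25th percentile on any array, and Col1a1 read 11.16 or more on all 4. The differences furthest from 0 among those counted were those of Loxl1 (-3.46) and Mfap5 (-3.03), whose products act in elastic fibre assembly, Fap (-2.61) and the proteoglycan Dcn (-2.61). All 9 mast cell genes were below 0 there (median -1.08, 5 past 2-fold), with log2 summed levels of 11.00, 9.09, 9.72 and 9.49. After median centring 17 of 17 fibroblast and 8 of 9 mast cell genes were below 0. Of the mast cell genes, Fcer1a and Ms4a2 were near background throughout, at 3.79 to 4.54, while the proteases Mcpt4, Cma1, Cpa3 and Tpsb2 differed by -3.20, -2.85, -2.65 and -2.36. Of 11 endothelial genes 4 were counted there, and 2 of these were lower past 2-fold, the angiopoietin receptor Tek (-2.76, at 8.17, 5.41, 6.69 and 6.58) and Ramp2 (-2.28). The endothelial summed level was 9.55, 8.79, 9.13 and 9.09. The list median was -0.04, and Pecam1 and Cdh5 lay below the median of every array. In the dendritic cell list the chemokine Ccl17 read 9.62, 7.31, 9.31 and 10.23, a difference of -2.31 in remodeling macrophages. The part of any of these cell types in the Ptx3, Acod1 and Il6 differences was not tested.

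In tumor macrophages 10 of 11 neutrophil genes were above 0 with the Ets2-deficient label (median 0.80). None was below on the probe sets standing for the genes, while a dimmer Mmp9 probe set, also bright, gave -0.49. Of the 6 neutrophil genes counted, 3 were higher past 2-fold, beside 2.23% of all genes counted. The log2 summed level of the neutrophil genes was 14.00, 13.68, 13.10 and 14.26, and Elane and Camp lay between 3.78 and 4.92. The 3 were S100a8 (1.49), S100a9 (1.47) and the chemokine receptor Cxcr2 (1.07, or 0.99 after median centring). Mammary epithelial genes were above 0 for 20 of 21 (median 0.78), with summed levels of 10.14, 9.45, 13.62 and 14.50, and Ltf sits in both lists. Of the 18 epithelial genes counted, 5 were higher past 2-fold, beside the same 2.23% of all genes counted. The milk protein genes Csn2, Csn1s1 and Wap differed by 3.70, 3.48 and 2.27, and Elf5 by 1.22. After median centring 9 of 11 neutrophil and 18 of 21 epithelial genes were above 0. The part of these cells in the Acod1 and Saa3 differences was not tested. In remodeling macrophages the neutrophil and epithelial medians were -0.54 and -0.39, with Cxcr2 (-1.12), Krt19 (-1.54), Krt18 (-1.51) and Csn3 (-1.27) lower past 2-fold and Glycam1 (2.71) higher. Thy1, in both the fibroblast and the T and NK cell list, was lower there (-1.63), and the B cell genes Ighm (1.16), Fcrla (1.07) and Ms4a1 (1.02) were higher. The remaining lists had medians, in remodeling and tumor macrophages, of 0.08 and -0.07 (macrophage identity), 0.02 and -0.12 (dendritic cell), 0.01 and 0.40 (monocyte), -0.04 and -0.10 (endothelial, with Tek and Ramp2 lower as given), -0.04 and 0.01 (T and NK cell) and 0.83 and -0.39 (B cell).

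**Figure D5:**
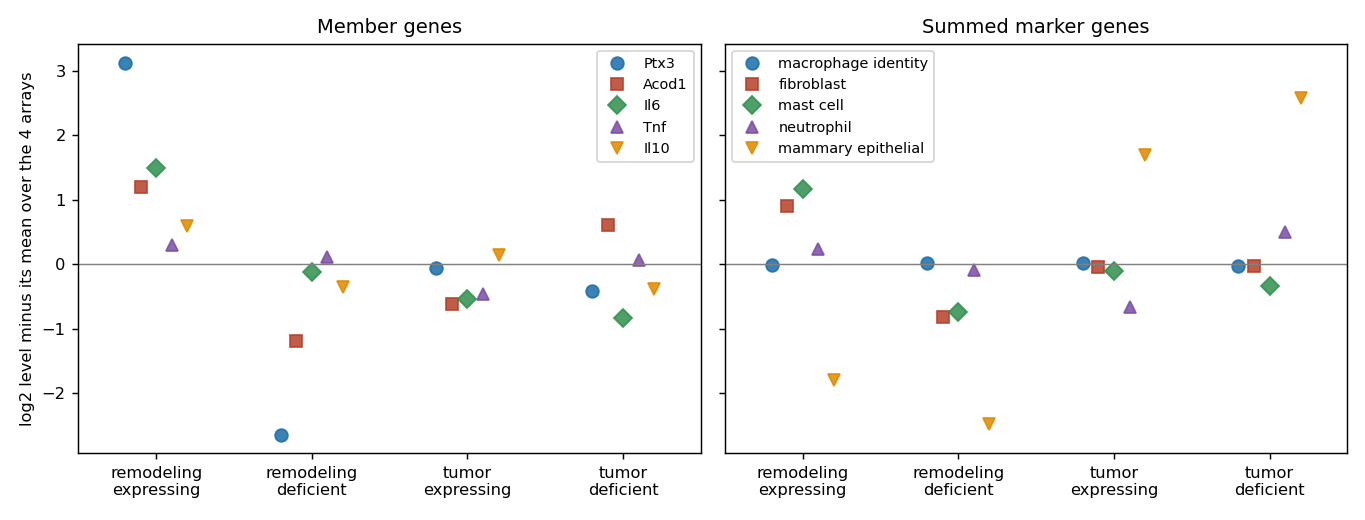
Log2 level minus its mean over the 4 arrays (vertical axis) on each array (horizontal axis) for 5 members (left) and for the summed level of 5 marker lists (right); points are offset sideways for clarity. The fibroblast and mast cell sums are highest on the remodeling Ets2-expressing and lowest on the remodeling Ets2-deficient array, the neutrophil sum is highest on the tumor Ets2-deficient array, and the macrophage sum is level.

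The genes whose 4 values were most like those of a member, each centred on its own mean, were ranked by root mean square difference over the 4 arrays among 7467 genes. Nearest to Ptx3 were the chemokine-scavenging receptor Ackr3 (0.46 log2), Pcolce2, a procollagen-processing enhancer (0.46), Islr (0.63), the phospholipase Pla1a (0.79) and Gfpt2 (0.80). Nearest to Acod1 were Calcb (0.18), the mesenchymal cadherin Cdh11 (0.18), the Wnt receptor Fzd2 (0.20), the growth factor Tgfb2 (0.24) and Csgalnact1 (0.24). Nearest to Il6 were Aoc3 (0.04), the EGF family ligand Hbegf (0.11), the clock genes Nr1d2 (0.12) and Per3 (0.12), and Lhx8 (0.14). Nearest to Tnf were Ceacam1 (0.02), Polr2h (0.03), Xdh (0.04), Ube3c (0.04) and Nras (0.05). The median distance over all genes was 2.09 for Ptx3, 0.99 for Acod1, 0.95 for Il6 and 0.39 for Tnf, so a small distance says less for Tnf, which varied little. None of these lists holds another member, since members were left out, and 4 arrays are too few for a correlation.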

How the data were processed

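RNA from YFP-positive macrophages, collected by flow sorting, was amplified from about 10 ng with the NuGEN Ovation system, biotin-labelled and hybridised to 1 array for each of 4 groups, per the labels' protocols. The deposited values are log2 expression values per probe set, made by the authors; GCOS and RMA are named in the submitters' processing notes, and versions, order and whether these 4 arrays alone were normalized together are not given in the sources used here. Amplification from so little RNA adds error that 1 array a group cannot show, and the number of arrays limits the precision.

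No scaling was added to the deposited values. Of 22690 probe sets, 20380 named exactly 1 gene, 691 several and 1555 none, beside 64 controls. A gene was represented by its probe set with the highest mean. Counts used the 50th percentile of each array as brightness limit and 2-fold as call. Groups came from the titles; the Ets2-deficient array was compared with the Ets2-expressing one in each setting and tumor with remodeling at each Ets2 label, and the Ets2 differences of both settings were subtracted. No test was run. The members, the 7 pathway lists and the 10 marker lists were chosen with earlier results of these data known. Named genes were the members, Ets2, up to 4 genes past 2-fold per list and Ets2 comparison, and the 5 nearest patterns to Ptx3, Acod1, Il6 and Tnf; other list genes were named after their values were seen. Alternatives were median centring, quantile normalization, centring on 18 hybridization controls, averaged probe sets, a 75th percentile limit or none, and 1.5-fold and 3-fold limits. Python 3.11.15 and pandas 2.3.3 were used, and the calling step was tested on simulated data.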

Additional observations from a re-analysis of the deposited data

Results flagged for a closer look

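Several Ets2 differences had opposite signs in tumor and remodeling macrophages, each from 1 array a group. The Ets2-expressing arrays of the settings also differ in labelled Ets2 genotype. The difference between the settings was not tested. For Acod1 it was 3.59 log2 (1.21 in tumor, -2.37 in remodeling macrophages), and for the matrix proteoglycan gene Vcan 4.03 (1.44 and -2.59), both past 2-fold in each setting. The other Vcan probe sets gave 0.24 and 0.77 in tumor macrophages, and averaging the Vcan probe sets ended its tumor call. For Tnf the difference between the settings was 0.71 (0.53 and -0.18), and the remodeling value turned to 0.02 after median centring. For Il12b it was 1.03 (0.26 and -0.78), with the tumor value within the probe set SD. Its values lay below the array median except on the tumor Ets2-deficient array. The other Il12b probe set, dim throughout, gave 0 in tumor and -0.35 in remodeling macrophages, so no opposite signs.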

How the results depend on the processing

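Of 160 member differences recomputed under 3 other scalings and with probe sets averaged, 159 moved by less than the probe set SD and none past 2-fold reversed. Both forms of centring shift every member of a comparison alike, and averaging changes only Il12b, so these values are not separate checks. For tumor minus remodeling on the Ets2-deficient arrays, Il12b went from 1.84 to 1.18 with its probe sets averaged and was then too dim to count. The count of members past 2-fold in tumor macrophages, 1 as reported, was 0 with the 75th percentile limit and 0 at 3-fold. For tumor minus remodeling on the Ets2-deficient arrays the count of 3 became 0 with the 75th percentile limit and 2 (Ptx3 and Acod1) with probe sets averaged, and median centring added Il6 on the lower side (-1.02) to make 4. The 4 members with a difference of Ets2 differences past 1 log2 became 2 at 3-fold. The count of 3 in remodeling macrophages (Ptx3, Acod1 and Il6) held under every alternative run except at 1.5-fold, where Il10 joined it. Higher genes made up 20.2% of all genes past 2-fold in remodeling macrophages as deposited and 39.5% after median centring; in tumor macrophages 74.5% and 58.1%; for tumor minus remodeling on the Ets2-deficient arrays 82.5% and 50.8%; for the difference of the Ets2 differences 74.3% and 43.6%, so that lower genes became the majority. Median centring moved the median of all genes in remodeling macrophages from 0.04 to 0.23. Among list genes named past 2-fold in an Ets2 comparison, averaging probe sets ended the calls of Vcan (in tumor macrophages), Selp, Fosl1, Tpsb2, Csn3, Elf5, Ighm, Fcrla and Ms4a1, and median centring those of Clec4e and Cxcr2. No paired analysis was possible because each group holds 1 array. Dim members (Il12a, Il12b and Il23a) give no sizes that can be relied on.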

Other observations

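Exactly equal values recur across arrays: 2937 of the 22690 probe sets (12.9%) had the same value on at least 2 arrays to the third decimal and 395 on at least 3. Among the members this held for 1 probe set, the dimmer one of Il12b, at 5.11 on both tumor arrays.

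The lymphotoxin gene Lta read 4.03, 4.23, 5.97 and 4.28, below the median of every array and highest on the tumor Ets2-expressing array. The chemokine genes Ccl2 and Ccl7, which attract monocytes, were lower in tumor than in remodeling macrophages at both Ets2 labels, by -1.56 and -1.02 log2 for Ccl2 and by -2.13 and -0.92 for Ccl7. Serpinb2, an inhibitor of plasminogen activators, read 7.49, 6.51, 3.97 and 4.21, at background on both tumor arrays.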
